A study of Mus musculus with 9 samples.

Results

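The genes of the interleukin 7 receptor and its JAK-STAT5 pathway were Il7r, Il2rg, Jak1, Jak3, Stat5a, Stat5b, Cish, Socs1 and Socs3. These 9 genes, of 43629 in the deposited table, were found by matching the Ensembl gene IDs of the rows to mouse symbols in GENCODE M21, and all 9 matched 1 row each. The rule that picked these genes used no measured value, but they were chosen with earlier results of these data known. Expression was measured in cells of an Eµ-Myc lymphoma, a mouse B-cell tumour in which a Myc transgene is driven by the immunoglobulin heavy chain enhancer. All 9 libraries came from a single clone, 4242, grown in vitro, so that every group shares the transgene and the clone. The treated groups received JQ1 at 1 µM or RG6146 at 2.5 µM, and the control group received the solvent DMSO, each for 2 h. JQ1 and RG6146 both inhibit BET bromodomain proteins, readers of histone acetylation. Each group had 3 libraries that the labels call biological replicates, so the p-values describe the spread between cultures of this clone and not between tumours.

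Interleukin 7 binds a receptor made of the alpha chain encoded by Il7r and the common gamma chain encoded by Il2rg. The kinases JAK1 and JAK3 sit on these chains and phosphorylate the transcription factors STAT5A and STAT5B, which then enter the nucleus. STAT5 induces Cish and Socs genes, whose products damp the same signalling. In mice this pathway is needed for the growth and survival of early B-cell precursors, and Il7r is switched off as B cells mature. Transcript counts give no measure of receptor protein or of STAT5 phosphorylation, and neither was measured here.

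The promoters of the 9 genes were read to show which hold the core of a STAT5 site, TTCNNNGAA, which reads the same on both strands. RefSeq listed 11 promoters for the 9 genes on GRCm38.p6, and those of Il7r, Cish and Socs3 held the motif within 250 bases before and 50 after the start. The motif occurred in 2726 of 32851 promoters of that length, or 8.3%. Its first base lay at -142 from the RefSeq start in Il7r, at 1 and 12 in Cish and at -154 in Socs3. The stretches from 170 bases before to 30 bases after the start follow, 5′ to 3′ on the strand of the gene, with each match in capitals. They are chr15:9529847-9530046 on the minus strand, chr9:107296489-107296688 on the plus strand and chr11:117969337-117969536 on the minus strand.
Il7r: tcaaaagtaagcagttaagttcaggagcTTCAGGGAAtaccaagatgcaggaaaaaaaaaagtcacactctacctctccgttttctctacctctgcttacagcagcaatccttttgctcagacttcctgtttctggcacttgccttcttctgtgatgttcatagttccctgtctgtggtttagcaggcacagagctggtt
Cish: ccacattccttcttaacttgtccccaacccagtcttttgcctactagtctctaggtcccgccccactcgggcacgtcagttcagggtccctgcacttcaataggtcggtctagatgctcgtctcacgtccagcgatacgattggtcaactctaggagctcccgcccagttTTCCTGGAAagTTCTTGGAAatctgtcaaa
Socs3: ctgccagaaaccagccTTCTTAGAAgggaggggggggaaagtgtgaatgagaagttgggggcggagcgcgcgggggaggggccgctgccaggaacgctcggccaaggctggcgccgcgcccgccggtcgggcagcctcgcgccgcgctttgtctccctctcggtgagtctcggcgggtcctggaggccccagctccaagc
The 2 matches in Cish lie close together just after the start, while Il7r and Socs3 have a single match further upstream. Binding of STAT5 was not measured, and a match is a description of the letters.

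The libraries held 3964732 to 5031717 counts in genes after JQ1, 3947240 to 4609612 after RG6146 and 3410161 to 5003725 under DMSO. Values are CPM, the counts of a gene relative to the library total, scaled by TMM, a method that sets the bulk of genes level between libraries. A gene was tested if it passed edgeR's filter on low counts, and it was called higher or lower at a Benjamini-Hochberg adjusted p under 0.05 over all 11002 tested genes in edgeR's quasi-likelihood test. All adjusted p-values below come from that test. All 7 B-lineage marker genes, among them Cd79a and Ms4a1, passed the filter. So did 9 of 12 myeloid genes, so that passing it does not by itself give the labelled B-cell origin. The B-lineage genes summed to 204 to 218 CPM after JQ1, 196 to 245 CPM after RG6146 and 384 to 472 CPM under DMSO. In such bulk samples, fewer cells of a type and less RNA per cell cannot be told apart.

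Of the 9 genes, 7 could be tested. Cish and Socs3 had too few counts. After JQ1, Jak1 and Socs1 rose and Il7r and Stat5b fell, which is 4 of 7 tested, where 28.9% of all tested genes were called, 13.6% higher and 15.4% lower. After RG6146, Jak1 rose and Il7r and Stat5b fell, which is 3 of 7 against a background of 26%, 12.5% higher and 13.5% lower. The libraries of the groups did not overlap for 4 of the 9 genes after JQ1 and for 3 after RG6146, against 42.6% and 40.9% of all tested genes. These counts varied with the analysis. DESeq2 and scaling by ERCC spike-ins called 1 gene, Il7r, in each comparison. ERCC scaling is given without a replicate block unless the block is named. With the replicate number as a block, ERCC scaling called 1 gene higher and 2 lower after each compound. After JQ1, 2 were called without JQ1 replicate 1, without both libraries numbered 2 of JQ1 and DMSO or under library size scaling. After RG6146, 1 was called without RG6146 replicate 2. The median log2 fold change over the tested genes of the pathway was -0.24 after JQ1 and -0.34 after RG6146, and over all tested genes it was 0.00 and 0.01. Both comparisons use the same 3 DMSO libraries. The fall of Il7r was many times larger than that of any other tested gene of the pathway.

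**Figure D1:**
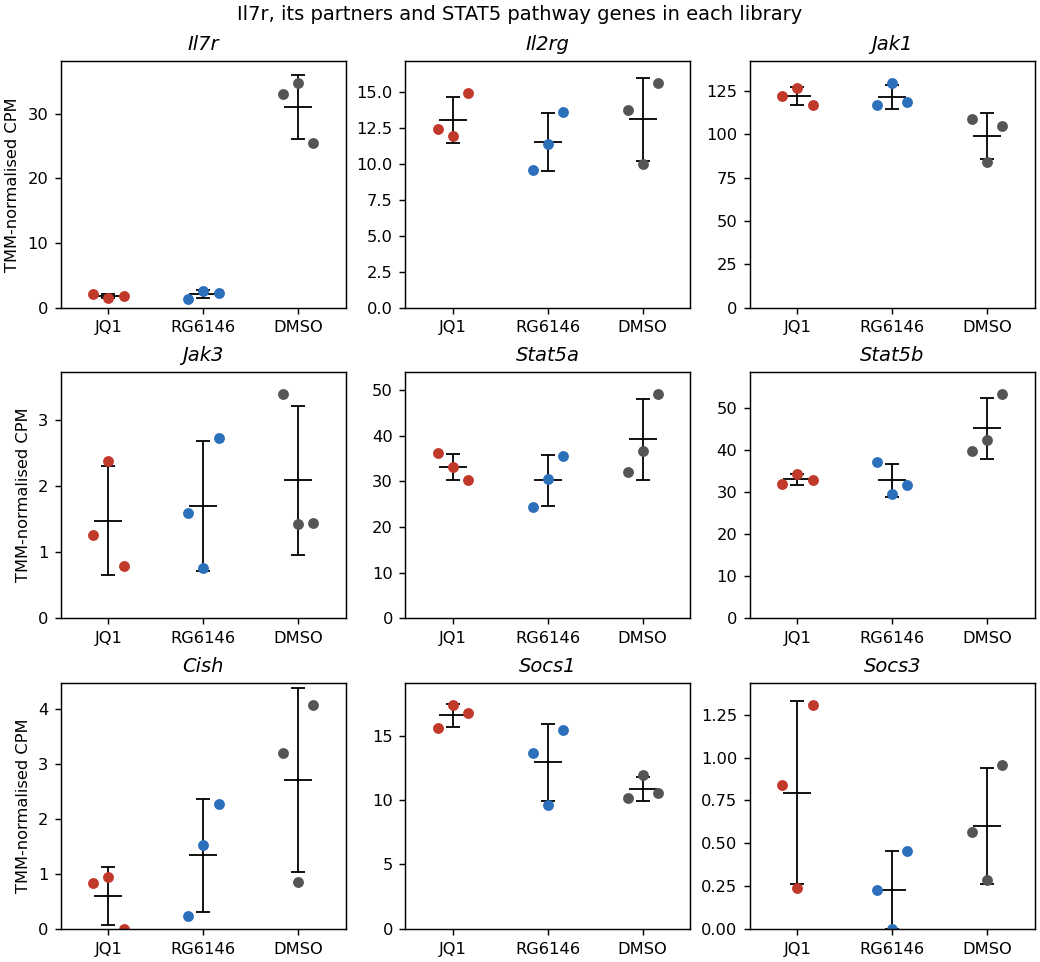
Level of each of the 9 genes in every library, in TMM-scaled CPM, with JQ1 left, RG6146 in the middle and DMSO right; points are libraries, horizontal lines group means and error bars 1 SD. Il7r lies at 1.37 to 2.53 CPM in the 6 treated libraries and at 25.4 to 34.7 CPM in the 3 DMSO libraries.

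Il7r (ENSMUSG00000003882, chromosome 15, 9505788 to 9530176 on mm10, minus strand, protein-coding) nearly disappeared. It had 2.10, 1.43 and 1.83 CPM in the JQ1 libraries, 1.37, 2.53 and 2.27 CPM in the RG6146 libraries and 33.1, 34.7 and 25.4 CPM in the DMSO libraries. Every treated library lay far below every DMSO library, and the JQ1 and RG6146 libraries overlapped each other. The log2 fold change was -4.09 ± 0.28 (SE, 95% interval -4.69 to -3.53) after JQ1, or 17.0-fold lower (adjusted p = 1.2e-09). After RG6146 it was -3.91 ± 0.27 (-4.48 to -3.37), or 15.0-fold lower (adjusted p = 1.8e-09). Ranked by fold change among the 11002 tested genes, Il7r was number 5 from the bottom after JQ1 and number 8 after RG6146.

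The treated level of Il7r rests on few reads. The 3 JQ1 libraries held 10, 6 and 7 counts, the RG6146 libraries 6, 10 and 10, and the DMSO libraries 176, 122 and 106. Il7r therefore passed the filter only through its DMSO libraries and so had to be lower after treatment. Pooled over a group, the exact 95% Poisson interval was 1.14 to 2.70 CPM after JQ1, 1.33 to 2.99 CPM after RG6146 and 28.1 to 34.2 CPM under DMSO, which covers counting error only. In all 19 alternative analyses of each comparison Il7r stayed called. Its log2 fold changes there were -4.23 to -3.87 after JQ1 and -4.07 to -3.68 after RG6146. These alternatives reuse the same libraries, and most apply a filter that Il7r met only through DMSO, so they are no independent support. With no filter on low counts the values were -4.08 and -3.91.

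Il2rg, the common gamma chain that also serves the receptors of interleukins 2, 4, 9, 15 and 21, showed no such loss. Its levels were 12.4, 11.9 and 14.9 CPM after JQ1, 9.58, 11.4 and 13.6 CPM after RG6146 and 13.7, 9.95 and 15.6 CPM under DMSO. The 3 groups overlapped. The log2 fold change was -0.02 ± 0.19 after JQ1 (95% interval -0.42 to 0.39, adjusted p = 0.963) and -0.19 ± 0.20 after RG6146 (-0.61 to 0.22, adjusted p = 0.520). These intervals hold changes of up to about 0.6 on the log2 scale and lie far from the fall of Il7r.

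Jak1, the kinase that binds the alpha chain, was slightly higher. It had 122, 127 and 117 CPM in the JQ1 libraries, 117, 129 and 118 CPM in the RG6146 libraries and 109, 84.2 and 105 CPM in the DMSO libraries. All 6 treated libraries lay above all 3 DMSO libraries, the lowest of which was replicate 2. Its log2 fold change was 0.29 ± 0.10 after JQ1 (adjusted p = 0.0265) and 0.29 ± 0.10 after RG6146 (adjusted p = 0.0314). Without DMSO replicate 2 it was 0.19 in both comparisons and no longer called (adjusted p = 0.146 after JQ1 and 0.170 after RG6146). With both libraries numbered 2 of DMSO and JQ1 left out it was 0.16 and 0.19, not called (adjusted p = 0.252 and 0.153). The call was also lost without JQ1 replicate 1 or 2 (adjusted p = 0.0686 and 0.0719), without RG6146 replicate 1 or 2 (adjusted p = 0.0524 and 0.122), in DESeq2 (adjusted p = 0.0559 and 0.0714), and with libraries scaled by their totals (adjusted p = 0.266 and 0.216) or by ERCC spike-ins (adjusted p = 0.545 and 0.477).

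Jak3, the kinase that binds the gamma chain, was too low to give a narrow estimate, at 3 to 18 counts per library. It had 1.26, 2.38 and 0.784 CPM after JQ1, 1.60, 0.759 and 2.73 CPM after RG6146 and 3.39, 1.42 and 1.44 CPM under DMSO. The groups overlapped, and the log2 fold change was -0.54 ± 0.57 after JQ1 (95% interval -1.75 to 0.65) and -0.34 ± 0.55 after RG6146 (-1.50 to 0.82). A fall as large as that of Il7r lay outside these intervals, and changes within them were not detectable at this depth. The annotated 3′ end of Jak3 lies within Insl3 on the same strand, which had 1 to 6 counts per library.

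Of the STAT5 genes, Stat5b was lower after both compounds. It had 31.8, 34.3 and 32.9 CPM in the JQ1 libraries, 37.2, 29.6 and 31.6 CPM in the RG6146 libraries and 39.7, 42.4 and 53.2 CPM in the DMSO libraries. Every treated library was below every DMSO library, and DMSO replicate 3 stood highest. The log2 fold change was -0.45 ± 0.12 after JQ1 (adjusted p = 0.0116) and -0.46 ± 0.12 after RG6146 (adjusted p = 0.0112). Without DMSO replicate 3 it was -0.31 after JQ1 (adjusted p = 0.0821) and -0.32 after RG6146 (adjusted p = 0.0819). The call was also lost without JQ1 replicate 1 (adjusted p = 0.0515), without RG6146 replicate 2 (adjusted p = 0.0603), in DESeq2 (adjusted p = 0.0526 and 0.0513) and with ERCC scaling (adjusted p = 0.230 and 0.280).

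Stat5a, its close relative in the next stretch of chromosome 11, was not called. It had 36.2, 33.1 and 30.3 CPM after JQ1, 24.4, 30.6 and 35.7 CPM after RG6146 and 32.0, 36.7 and 49.1 CPM under DMSO. Both treated groups overlapped the DMSO libraries. The products of Stat5a and Stat5b are close in sequence, and how reads that match several places were counted is not stated by the labels. The log2 fold change was -0.24 ± 0.17 after JQ1 (adjusted p = 0.318) and -0.37 ± 0.17 after RG6146 (95% interval -0.73 to -0.02, adjusted p = 0.118). The RG6146 value was called in 3 of 19 alternatives, without DMSO replicate 1 (-0.51, adjusted p = 0.0345), under library size scaling (-0.49, adjusted p = 0.0381) and without the filter (adjusted p = 0.0296). The 3′ end of Stat5a overlaps that of Stat3 on the opposite strand, and the strand setting of the counting is not given in the sources used here. Stat3 had 114, 91.4 and 93.1 CPM after JQ1, 78.2, 77.4 and 112 CPM after RG6146 and 55.1, 60.3 and 91.6 CPM under DMSO, so that reads of the pair may not be fully separated.

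**Figure D2:**
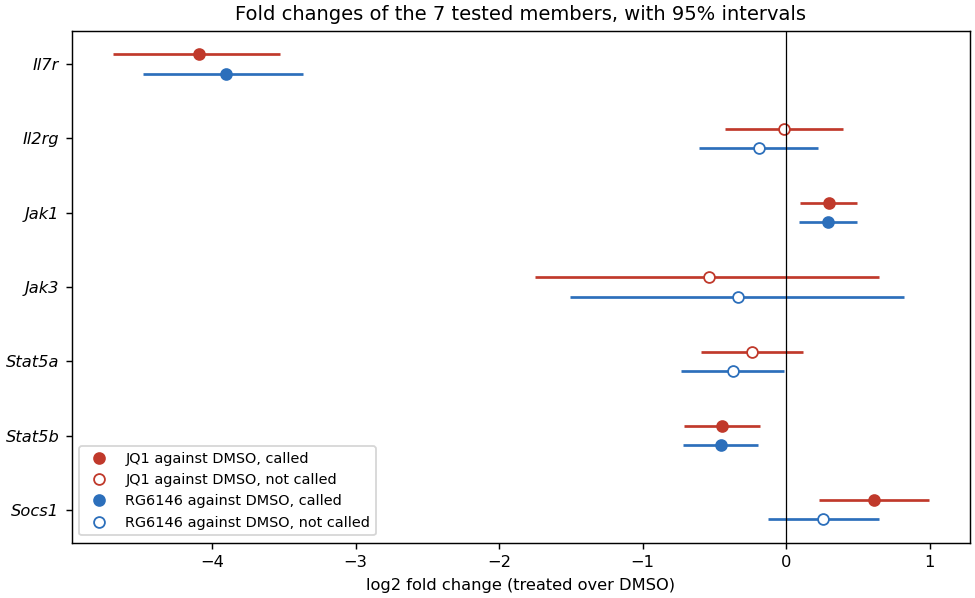
Log2 fold change of the 7 tested genes in JQ1 against DMSO (upper point of each pair) and RG6146 against DMSO (lower point), with 95% intervals; filled points were called at an adjusted p under 0.05. Il7r lies at -4.09 and -3.91 against DMSO, and the other 6 genes between -0.54 and 0.61.

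Among the feedback inhibitors, Socs1 was higher after JQ1. Its product binds JAK kinases and blocks them. It had 15.6, 17.4 and 16.7 CPM in the JQ1 libraries, 13.7, 9.62 and 15.4 CPM in the RG6146 libraries and 10.2, 11.9 and 10.5 CPM in the DMSO libraries. The JQ1 libraries lay above all others, while the RG6146 libraries overlapped the DMSO ones through replicate 2. The log2 fold change was 0.61 ± 0.18 after JQ1 (95% interval 0.23 to 0.99, adjusted p = 0.0169) and 0.26 ± 0.19 after RG6146 (-0.13 to 0.65, adjusted p = 0.333). Without DMSO replicate 1 the JQ1 value was 0.56 (adjusted p = 0.0631), and it was not called in DESeq2 (adjusted p = 0.0974), with total-count scaling (adjusted p = 0.0506) or with ERCC scaling (adjusted p = 0.191). Nor was it called without both libraries numbered 2 of DMSO and JQ1 (adjusted p = 0.0572).

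Cish, whose product blocks STAT5 docking at receptors, had 4, 4 and 0 counts in the JQ1 libraries, 1, 6 and 10 in the RG6146 libraries and 17, 3 and 17 in the DMSO libraries. On the CPM scale this was 0.842, 0.952 and 0 after JQ1, 0.228, 1.52 and 2.27 after RG6146 and 3.20, 0.853 and 4.08 under DMSO. The 0 in JQ1 replicate 3 allows a level of up to 0.784 CPM, from 3 counts. DMSO replicate 2 lay within the range of both treated groups, and a two-sided exact permutation test of the CPM gave p = 0.2 after JQ1 and p = 0.3 after RG6146, where 3 libraries against 3 cannot go below 0.1. Without the filter on low counts, edgeR gave -2.10 for JQ1 (adjusted p = 0.00476) and -1.04 for RG6146 (adjusted p = 0.228). Gm17041, an antisense transcript over Cish, had 0 to 8 counts per library.

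Socs3, which restrains gp130 receptors and JAK kinases, had 4, 1 and 5 counts after JQ1, 1, 0 and 2 after RG6146 and 3, 1 and 4 under DMSO. The groups overlapped. The same permutation test gave p = 0.7 after JQ1 and p = 0.2 after RG6146. Its presence was close to the limit of these libraries, and a change was not detectable at this depth.

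RG6146 and JQ1 were also set against each other, at doses that differ, so that compound and dose cannot be told apart. None of the 7 tested genes was called, where the background was 0.00909%, 1 gene of 11002. That gene, Gm12693, was higher after RG6146 (1.51 ± 0.23, adjusted p = 0.0321) and is named after its value was seen. Unadjusted p-values under 0.05 numbered 427 over all genes and 0 in the pathway, and DESeq2 called 0 of its genes. The difference of Il7r was 0.18 on the log2 scale, with a 95% interval of -0.54 to 0.91. That of Il2rg was -0.18 (-0.59 to 0.24) and that of Jak1 -0.01 (-0.21 to 0.19). Socs1 was the one gene whose libraries did not overlap, all 3 RG6146 libraries lying below the JQ1 ones, at -0.35 ± 0.18 (-0.73 to 0.02, adjusted p = 0.999). Of all tested genes, 9.93% did not overlap between these groups.

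The wider pathway was described through 6 lists, each of genes with a known place around the receptor. Of 19 other cytokine receptor genes 13 could be tested, and 7 fell and 0 rose after either compound, where 15.4% of all tested genes fell after JQ1 and 13.5% after RG6146. The median log2 fold change was -0.94 after JQ1 and -0.91 after RG6146. Il15ra, the alpha chain for interleukin 15, had 3.16, 3.09 and 2.09 CPM after JQ1, 3.19, 1.52 and 2.27 CPM after RG6146 and 15.4, 14.5 and 12.9 CPM under DMSO. Its treated libraries lay below all DMSO libraries, at -2.34 ± 0.27 after JQ1 (adjusted p = 3.38e-06) and -2.59 ± 0.29 after RG6146 (adjusted p = 1.58e-06). Il2ra, the alpha chain for interleukin 2, had 0, 2 and 4 counts after JQ1, 8, 2 and 4 after RG6146 and 29, 23 and 19 under DMSO (-3.46 and -2.30). Like Il21r and Osm below, it passed the filter only through its DMSO libraries and so had to be lower. Il6ra fell by 1.64 after JQ1 and by 1.52 after RG6146, and Ifnar2, a chain of the type I interferon receptor, by 0.94 and by 1.20. The other 3 that fell were Il21r (-3.13 and -2.88), Il10rb (-1.59 and -1.53) and Ifngr2 (-1.23 and -0.78). The Ifngr2 call after RG6146 was lost without RG6146 replicate 1 (adjusted p = 0.0850) or 3 (0.0864), without DMSO replicate 1 (0.0716) or 3 (0.0505), in DESeq2 (0.0666) and under ERCC scaling (0.0946).

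Not all cytokine receptor genes fell. Crlf2, which pairs with the product of Il7r to bind TSLP, had a log2 fold change of -0.04 after JQ1 and -0.11 after RG6146 and was not called (adjusted p = 0.880 and 0.684). Il4ra, which pairs with the gamma chain, had 0.27 and 0.19 (adjusted p = 0.177 and 0.358). The falls in this list depended on low genes, since with a mean of at least 10 CPM only 5 genes were tested, 2 fell after each compound and the medians were -0.08 and -0.15. Of 8 ligand genes only Il2 passed the filter and it was not called. Il7 itself had 0 to 2 counts per library, and Tslp had none.

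Of 7 other JAK and STAT genes 6 could be tested. Stat2, which carries interferon signals, rose by 0.71 ± 0.24 after RG6146 (adjusted p = 0.0353) and had 0.64 ± 0.24 after JQ1 (adjusted p = 0.0565). The Stat2 call was lost without RG6146 replicate 1 (adjusted p = 0.0638) or 3 (0.140), without DMSO replicate 1 (0.0641) or 2 (0.135), in DESeq2 (0.159), and under library size (0.0738) or ERCC scaling (0.137). Leaving out both libraries numbered 2 of DMSO and JQ1 also lost it (adjusted p = 0.123). After JQ1, Stat2 was called without JQ1 replicate 2 (adjusted p = 0.0424), without DMSO replicate 3 (0.0397) and with the replicate number as a block (0.0367, and 0.0416 with ERCC scaling). The difference of Stat2 between the compounds was not called.

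Of 20 genes that restrain JAK-STAT signalling 19 could be tested, and they moved both ways. After JQ1 5 rose and 4 fell, where 13.6% of all tested genes rose and 15.4% fell. After RG6146 5 rose and 3 fell, where 12.5% of all tested genes rose and 13.5% fell. The medians of the list were 0.09 and 0.01. Socs2, a SOCS gene that STAT5 is known to induce, had 65.0, 75.0 and 72.2 CPM after JQ1, 73.2, 71.6 and 69.5 CPM after RG6146 and 168, 153 and 151 CPM under DMSO. All treated libraries were below all DMSO libraries (-1.15 ± 0.08 and -1.14 ± 0.08, adjusted p = 2.69e-08 and 3.45e-08). Socs7 moved the other way, by 0.91 ± 0.09 after JQ1 and 0.75 ± 0.09 after RG6146. Ptprc, the phosphatase CD45, had -0.80 and -0.82, and Ptpn6, the phosphatase SHP-1, had -0.60 and -0.74, all called. The remaining calls, named after their values were seen, were rises of Ptpn1 (0.40 and 0.33), Ptpn11 (0.31 and 0.39) and Sh2b3 (0.77 and 0.69) after both compounds, of Pias3 after JQ1 (0.97) and of Socs4 after RG6146 (0.52), and a fall of Pias2 after JQ1 (-0.56). Under the alternatives for JQ1, Ptpn11 was called in 13 of 19, Pias2 in 11 of 19 and Pias3 in 14 of 18.

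**Figure D3:**
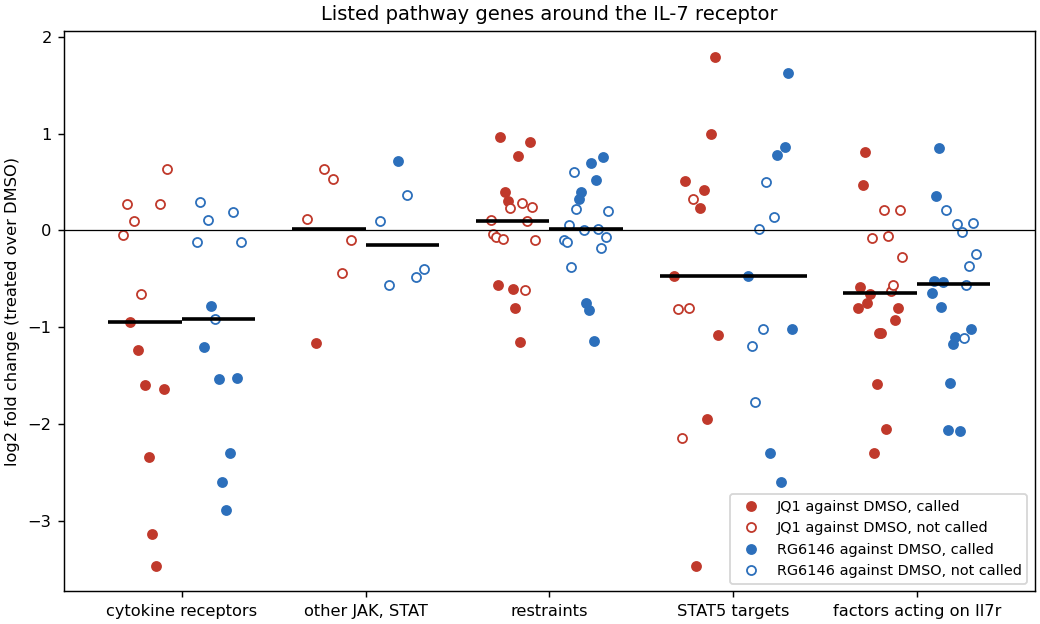
Log2 fold change of every tested gene of 5 lists around the receptor, leaving out the ligands, for JQ1 against DMSO (left of each pair) and RG6146 against DMSO (right); filled points were called and bars are medians. In the list of other cytokine receptors 7 of 13 genes fell and 0 rose after each compound, while the restraints and the STAT5 targets moved both ways.

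Textbook STAT5 targets did not move as a block. Of 16 genes 13 could be tested, and 5 rose and 4 fell after JQ1 and 3 rose and 4 fell after RG6146. Of all tested genes, 13.6% were called higher and 15.4% lower after JQ1, and 12.5% and 13.5% after RG6146. The median log2 fold change of the list was -0.47 after each compound. The sign of that median turned with the filter, to 0.29 after JQ1 and 0.04 after RG6146 over the 8 genes that averaged 10 CPM or more. Without JQ1 replicate 2 it was -0.75 and -0.74. Pim2, a survival kinase, had 25.9, 24.8 and 20.7 CPM after JQ1, 21.0, 19.2 and 23.4 CPM after RG6146 and 6.39, 6.25 and 7.91 CPM under DMSO. It rose by 1.79 ± 0.17 after JQ1 (adjusted p = 4.28e-07) and by 1.63 ± 0.17 after RG6146 (adjusted p = 1.58e-06), with all treated libraries above all DMSO libraries. Tnfrsf13b, the receptor TACI, fell by 1.07 and by 1.02, and Il2ra, also a STAT5 target, fell as given above. Osm, a cytokine gene, had 6, 7 and 3 counts after JQ1, 2, 2 and 6 after RG6146 and 23, 19 and 21 under DMSO, and was called lower. Bcl2, a survival gene, had -0.47 and -0.47, both called. Mcl1 (0.23) and Ccnd3 (0.51) were called higher after JQ1 and had 0.14 and 0.01 after RG6146. Of the 19 alternatives, Mcl1 was called after JQ1 in 5 and Ccnd3 in 12.

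Myc had 128, 174 and 154 CPM after JQ1, 201, 178 and 207 CPM after RG6146 and 125, 113 and 103 CPM under DMSO, where transcripts of the gene and of the transgene may both be counted. Its log2 fold change was 0.42 ± 0.11 after JQ1 (adjusted p = 0.00815) and 0.78 ± 0.11 after RG6146 (adjusted p = 5.9e-05). The JQ1 call of Myc held in 16 of 19 alternatives. It was lost under library size scaling (adjusted p = 0.0603), under ERCC scaling (0.276) and without both libraries numbered 2 of DMSO and JQ1 (0.0922). The number of STAT5 targets that rose after JQ1 was 3 without JQ1 replicate 1, JQ1 replicate 2 or DMSO replicate 3, and 2 without DMSO replicate 1. Pim1, another survival kinase, rose by 1.00 ± 0.22 after JQ1 (adjusted p = 0.0113) and by 0.86 ± 0.22 after RG6146 (adjusted p = 0.0234). Its call was lost without DMSO replicate 1 (adjusted p = 0.0539 after JQ1 and 0.0909 after RG6146) and, after RG6146, without RG6146 replicate 1 or 3 (adjusted p = 0.0587 and 0.0549). Without both libraries numbered 2 of DMSO and JQ1 the call was lost after each compound (adjusted p = 0.0624 and 0.0687).

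Among transcription factors known to act on Il7r more fell than rose. Of 23 genes 20 could be tested. After JQ1 11 fell and 2 rose, where 15.4% of all tested genes fell and 13.6% rose. After RG6146 10 fell and 2 rose, where 13.5% of all tested genes fell and 12.5% rose. The medians were -0.64 and -0.55. Ikzf1, the lymphoid factor Ikaros, had 75.8, 76.9 and 72.4 CPM after JQ1, 79.1, 73.1 and 75.0 CPM after RG6146 and 224, 249 and 203 CPM under DMSO. The treated libraries lay in a narrow band below all DMSO libraries, at -1.59 ± 0.09 after JQ1 (adjusted p = 6.08e-10) and -1.57 ± 0.09 after RG6146 (adjusted p = 7.36e-10). Foxp1, a forkhead factor that can repress Il7r, fell by 0.75 and by 0.78, Ebf1, a factor of early B cells, by 0.80 and by 0.64, and Ikzf3, the relative of Ikaros named Aiolos, by 1.05 and by 1.17.

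The 2 factors that rose were Foxo1, an activator of Il7r in lymphocytes, and Foxo3, its relative, both named after their values were seen. Foxo1 had a log2 fold change of 0.47 ± 0.10 after JQ1 (adjusted p = 0.00242) and 0.36 ± 0.10 after RG6146 (adjusted p = 0.0170). The RG6146 call held in 13 of 19 alternatives. It was lost without RG6146 replicate 2 (adjusted p = 0.0663), DMSO replicate 2 (0.0867) or both libraries numbered 2 of DMSO and JQ1 (0.0792). It was also lost in DESeq2 (0.0636) and under library size (0.110) or ERCC scaling (0.387). The JQ1 call was lost under ERCC scaling (0.239). Foxo3 had 0.81 ± 0.13 and 0.85 ± 0.13. The lists name what these factors are known for in other cells, and their binding at Il7r was not measured.

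Genes near Il7r gave little to set beside it. The annotation holds 6 genes within 250 kb, 4 of them in the table, and 0 passed the filter. Spef2, whose end lies 48016 bases away, had 5, 3 and 2 counts after JQ1, 2, 3 and 4 after RG6146 and 16, 4 and 10 under DMSO. Its treated levels, 0.456 to 1.05 CPM, all lay below those under DMSO, 1.14 to 3.01 CPM, with no test. Capsl had 0 to 3 counts per library, and Ugt3a1 and Ugt3a2 had none.

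The profile of Il7r over the 9 libraries was then set against 7410 tested genes whose mean level reached 10 CPM, by the root mean square difference of log2 CPM centred on the DMSO mean. The closest were Mast4, a kinase gene (0.345), Gm12481 (0.728), Cbfa2t3, a transcriptional corepressor (0.776), Cysltr1, a leukotriene receptor (0.863), and Il16, a cytokine gene (0.875). Mast4 had 3.71 ± 0.684 CPM after JQ1, 3.67 ± 0.783 CPM after RG6146 and 46.9 ± 7.81 CPM under DMSO (SD, n = 3 each). All 5 had been picked for likeness, so their falls are a description.

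**Figure D4:**
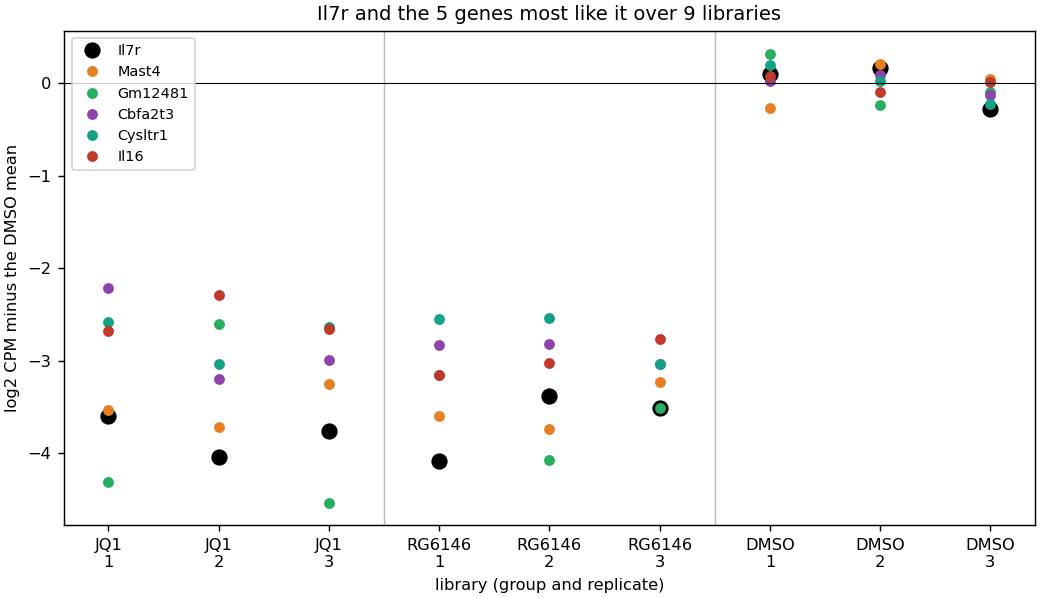
Log2 CPM of Il7r and the 5 genes most like it in each library, centred on the DMSO mean, with JQ1 left, RG6146 in the middle and DMSO right. All 6 genes lie near 0 in the DMSO libraries and far below in the 6 treated libraries, with Mast4 closest to Il7r.

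Markers of other cell types that express Il7r were low. Of 14 T, NK and innate lymphoid genes 1 passed the filter, Cd2, which fell by 1.33 ± 0.30 after JQ1 (adjusted p = 0.00254) and had -0.67 ± 0.28 after RG6146 (adjusted p = 0.0855). The sum of the list was 3.28 to 7.18 CPM after JQ1, 5.79 to 8.03 CPM after RG6146 and 8.43 to 13.2 CPM under DMSO, with all treated libraries below all DMSO libraries. Without Cd2 it was 1.01 to 4.17 CPM after JQ1, 1.77 to 3.04 CPM after RG6146 and 2.55 to 3.60 CPM under DMSO, and the groups overlapped. Trac, Gzmb and Ncr1 were at 0 in all 9 libraries, and Cd3e, Cd3d, Cd3g and Cd4 had at most 1 count in any library.

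Genes of pro-B and pre-B cells other than Il7r summed to 0.757 to 13.7 CPM after JQ1, 1.78 to 8.61 CPM after RG6146 and 16.4 to 18.6 CPM under DMSO, with 2 of 7 tested. Their sum moved in the direction of Il7r, as did the B-lineage sum. With Il7r included, 3 genes of the list were tested, and after each compound 2 were called lower and 1 was not called. The highest sum after JQ1, 13.7 CPM, was that of replicate 2. Stromal and endothelial genes, 2 of 10 tested, summed to 98.4 to 101 CPM after JQ1, 104 to 111 CPM after RG6146 and 132 to 143 CPM under DMSO, without overlap, and of them Pecam1 fell after both compounds (-1.75 and -1.69). Erythroid genes, 0 of 6 tested, overlapped at 3.03 to 17.4 CPM after JQ1, 3.90 to 7.85 CPM after RG6146 and 4.99 to 8.69 CPM under DMSO. The part of these markers in the result was not tested. Myeloid genes, 9 of 12 tested, summed to 57.3 to 284 CPM after JQ1, 88.6 to 129 CPM after RG6146 and 163 to 774 CPM under DMSO. The sum was highest in DMSO replicate 2, where that of the B-lineage genes was 384 CPM. All treated libraries but JQ1 replicate 2, the highest after JQ1, lay below all DMSO libraries. Without DMSO replicate 2 and JQ1 replicate 2, the sums were 163 and 359 CPM under DMSO and 81.7 and 57.3 CPM after JQ1. A fit without those libraries thus keeps the difference in myeloid sums, and the part of myeloid RNA in the fall of Il7r was not tested.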

How the data were processed

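QuantSeq 3′ mRNA libraries, per the labels' protocols, were sequenced as single reads. The deposited table holds raw read counts per gene and 92 ERCC spike-in rows. The submitters' processing notes name mm10, featureCounts, HISAT2 2.1.0, cutadapt 1.7, FastQC 0.11.5 and bcl2fastq 2.17.1.14. The annotation release and the handling of reads with several matches are not given there, nor is the strand setting.

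The counts were fitted with edgeR 4.0.16 in R 4.3.3: filterByExpr with a minimum count of 10, TMM scaling, and a robust quasi-likelihood model over all 9 libraries. Its adjusted p covers 11002 genes. Intervals are 95% Wald intervals without a prior count. ERCC rows, 0.958% to 1.51% of counts, stayed out of library sizes. DESeq2 1.42.0, other scalings, filters and left-out libraries were alternatives.

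The 9 genes, the lists, the tests and the alternatives were chosen with earlier results of these data known. From each list the text names up to 4 called genes with the smallest p against DMSO. Crlf2, Il4ra, Il2 and Stat3 were named for their role or position, and other called genes of the lists after their values were seen. Symbols came from GENCODE M21, with 1081 IDs unmatched, and promoters from RefSeq GRCm38.p6. Some genes of the lists are not reported here.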

Additional observations from a re-analysis of the deposited data

How the results depend on the processing

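The directions of 89 results called against DMSO, for genes of the pathway, its lists and the 5 genes most like Il7r, held in all 19 alternatives that gave them a value. Of their calls, library size scaling kept 80, ERCC scaling 61 and DESeq2 77. ERCC scaling with the replicate block kept 85, and leaving out the libraries numbered 2 of DMSO and JQ1 kept 75. The cause was not tested. Among the genes of the pathway, Il7r alone was called under each of the 19 alternatives, DESeq2 included. Jak1 after both compounds, Socs1 after JQ1 and Stat5b after both lost their call under ERCC scaling, and Jak1 (0.16 and 0.18) and Socs1 (0.48) under library size scaling. Under ERCC scaling with the replicate block, only Jak1 after JQ1 among these lost its call (adjusted p = 0.0606).

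Genes called numbered 1196 after JQ1 and 1082 after RG6146 under ERCC scaling, and 1902 after RG6146 in DESeq2. Between RG6146 and JQ1, 4 were called under ERCC scaling, 17 without the filter, and 0 with the replicate block, at a mean of 10 CPM, with the 2 groups alone or without both libraries numbered 2. Leaving out a library gave 2492 to 3248 after JQ1, 2239 to 2970 after RG6146 and 0 to 2 between the compounds. Library size scaling moved the median of all genes to -0.13 after JQ1 and -0.10 after RG6146, and the split of higher and lower calls to 913 and 2444 after JQ1 and to 879 and 2077 after RG6146, against 1495 and 1689 and 1374 and 1489 with TMM.

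Values near 0 changed sign. For RG6146 against JQ1, Jak1 was 0.020 under library size scaling, 0.041 under ERCC scaling (0.042 with the replicate block) and 0.023 without both libraries numbered 2, and Stat5b was 0.016, 0.022 (0.039 with the block) and 0.020. Leaving out a library gave -0.056 to 0.023 for Jak1, -0.11 to 0.056 for Stat5b and -0.068 to 0.70 for Jak3 in that comparison, and -0.16 to 0.12 for Il2rg after JQ1. Ccnd3 after RG6146 was -0.10 under library size scaling, -0.021 at a mean of 10 CPM and -0.10 to 0.15 without 1 library.

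After TMM scaling, replicate numbers showed little pairing in gene levels. Over 9 same-numbered pairs the correlation of deviations was -0.063 to 0.103, and 1 was over 0.1. The ERCC share of counts, however, fell with replicate number in each group. It was 1.37%, 1.22% and 0.958% for JQ1, 1.35%, 1.17% and 0.972% for RG6146 and 1.51%, 1.18% and 1.13% for DMSO. Under ERCC scaling, the replicate block moved the genes called from 1196 to 2829 after JQ1 and from 1082 to 2604 after RG6146. Under TMM scaling with the block, 3092 genes were called after JQ1 and 2789 after RG6146, and the pathway's calls numbered the same. Jak3, Cish and Socs3 are limited by depth, at up to 18 counts per library, and the median 95% interval of a tested gene reached 0.351 to either side on the log2 scale.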
